A study of Mus musculus with 2 samples.

Results

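Mbp encodes myelin basic protein, and its transcripts were read in mouse cortex by long-read RNA sequencing. All models (distinct chains of exons) that the deposited tables assign to the gene name Mbp were taken, which gave 1 gene of 18366 annotated genes with a read. Mbp had 33 models in each library, of 116776 and 130406 models in all. The mice were 14-day-old males of B6CASTF1/J, the first generation of C57BL/6J crossed with the wild-derived CAST/EiJ strain, and the tissue was their left cerebral cortex. The labels give 1 group of 2 biological replicates, each a library from 2 µg of total RNA with ERCC and SIRV spike-ins, and no treatment or control group. One donor identifier is shared by both samples and their descriptions speak of several males, so whether each is an animal or a pool is not given in the sources used here. The p-values of tests between libraries therefore measure only the difference between these libraries against counting error, and that difference may be technical. Tests within 1 library compare its reads with each other, and reads of 1 library are not replicates.

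Myelin basic protein lies on the cytoplasmic faces of the myelin membrane and holds them together, and mice that lack it form no compact myelin in the brain. Oligodendrocytes make it from an mRNA that travels into their processes and is translated there. Alternative splicing of a few exons gives a family of classic proteins named by their mass, and forms with exon 2 are known to enter the nucleus. A promoter far upstream starts the golli transcripts, which add exons of their own to part of the classic protein and are known in neurons, oligodendrocyte-lineage cells and immune cells.

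On mm10 the gene spans chromosome 18, 82475146 to 82585637, on the plus strand, with 16 annotated transcripts in GENCODE M21. The classic exons are numbered 1 to 7 here. Exon 1 (82554470 to 82554750) holds the classic start, and exon 7 (82584112 to 82585637) holds the last coding bases and the long 3' UTR. Between them, exon 2 (82561778 to 82561855, 78 bases), exon 5 (82575601 to 82575633, 33 bases) and exon 6 (82578936 to 82579058, 123 bases) are coding exons that vary between transcripts. All 3 have lengths divisible by 3, so adding or skipping any of them keeps the reading frame. The golli first exon (82475146 to 82475394) begins 79324 bases upstream of exon 1. Exon 1 itself lies within a longer golli exon, which starts at 82554320 and either joins exon 3 or runs on to 82558703 as a last exon of 4384 bases, called the extended golli exon below.

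The libraries held 775048 and 924222 mouse reads. Of these, 1423 reads in replicate 1 and 1188 in replicate 2 were from Mbp, which put it at rank 23 and rank 51 of all genes by reads. Marker genes of myelinating oligodendrocytes (8 genes without Mbp) summed to 1408 and 833 CPM (read counts scaled to a common total of mouse reads), and none of the 8 was at 0. Markers of striatal neurons summed to 928 and 223 CPM. The 4 markers of excitatory neurons summed to 3373 and 4905 CPM, of which Nrgn, the 1 that passed the test between libraries, held 1942 and 3525 CPM, while 2 of the 4 had a log2 ratio below 0. Of the 3 T cell markers, Cd3e and Cd3d were at 0 in both libraries, and Cd4 had 8 reads in replicate 1 and 0 in replicate 2.

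Mbp was less abundant in replicate 2. Its level was 1836 CPM in replicate 1 and 1285 CPM in replicate 2 (1561 ± 389 CPM, SD, n = 2). On the log2 scale, replicate 2 over replicate 1 came to -0.51 (-0.63 to -0.40, a 95% interval from the counts; adjusted p = 8.72e-17 by Fisher's exact test with Benjamini-Hochberg adjustment). Among all 11203 genes tested, 236 (2.11%) passed this test in either direction. The striatal markers moved with it: 5 of 6 tested were lower in replicate 2, with a median log2 ratio of -2.45. Of the markers of myelinating oligodendrocytes, 7 were tested and all 7 had a log2 ratio below 0, with a median of -0.78. Of these, 2 passed, both lower in replicate 2. No marker of interneurons, microglia, oligodendrocyte precursors or newly formed oligodendrocytes passed. The median log2 ratios of these lists were -0.49 (2 tested), -0.24 (2 tested), -0.34 (3 tested) and 0.02 (3 tested). The part of any of these cell types in the result was not tested. In bulk tissue, fewer cells of a type and less RNA per cell cannot be told apart.

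Most Mbp reads matched annotated transcripts exactly. These Known models held 86.6% of Mbp reads in replicate 1 (95% Wilson interval 84.8% to 88.3%) and 84.3% in replicate 2 (82.2% to 86.3%). Over all annotated genes the share was 72.4% and 71.5%. Incomplete splice matches, which hold only part of an annotated chain of introns, were 1.41% and 0.926% of Mbp reads, against 10.6% and 10.9% over all genes. Chains that combine known splice sites in ways not annotated (NIC) or use an unannotated splice site (NNC) were 0.211% and 1.05% in replicate 1 and 0.337% and 1.35% in replicate 2. Genomic models, which overlap the gene without following its splicing, were 10.7% and 13.05% of Mbp reads, against 5.47% and 6.31% over all genes. These intervals, like all others given here, cover counting error only.

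The classic transcripts from exon 1 to exon 7 filled every combination of exons 2, 5 and 6, and all 8 combinations were found in both libraries. Annotated chains of this kind held 1213 and 977 reads. The leading one, Mbp-211, has exon 5 alone and encodes 128 residues, with a mass of 14.2 kDa computed from the annotated coding sequence. It had 658 and 502 reads, which is 52.8% ± 2.03 of the classic reads (SD, n = 2).

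The next chains add one of the other exons. Mbp-212, with exons 5 and 6 (169 residues, 18.5 kDa), had 210 and 203 reads, or 19.0% ± 2.45. Mbp-215, with exons 2 and 5 (154 residues, 17.2 kDa), had 227 and 164 reads, or 17.8% ± 1.36. Their order differed between the libraries, and their intervals overlapped in replicate 1 (15.3% to 19.5% and 16.6% to 21.01%) and in replicate 2 (18.4% to 23.4% and 14.6% to 19.3%). Mbp-209, which holds all 3 exons and encodes the longest classic protein (195 residues, 21.5 kDa), had 73 and 67 reads, or 6.44% ± 0.594. These 4 chains, all with exon 5, made up 96.0% ± 0.344 of classic reads.

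The 4 combinations without exon 5 shared the other 3.87% ± 0.461, with 43 and 41 reads. Mbp-210, with exon 6 alone, led them with 29 and 25 reads. Its protein of 158 residues has a mass of 17.2 kDa, like that of Mbp-215, although the exon added is another one. Together these 2 chains of like mass held 256 and 189 reads, and 29 and 25 of those came from the form without exon 2. A mass of 17.2 kDa therefore stands for 2 splice forms in these libraries, one with exon 2 and one without.

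The other 3 combinations were rare. Mbp-203, which skips exons 2, 5 and 6 and encodes 117 residues (12.96 kDa), had 9 and 8 reads. Mbp-216, with exons 2 and 6 (20.3 kDa), had 4 and 6 reads. Mbp-207, with exon 2 alone (15.98 kDa), had 1 and 2 reads, fewer than the floor of 3 counts used here in either library.

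GENCODE also lists a longer exon 5, which starts 66 bases upstream and is 99 bases long. Mbp-204, which has this form, had 2 reads in replicate 1 and 0 in replicate 2. Mbp-202 and Mbp-206, which join it to exon 2 or exon 6, had 0 reads in both libraries, which allows shares of classic reads of up to 0.247% and 0.307%.

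**Figure D1:**
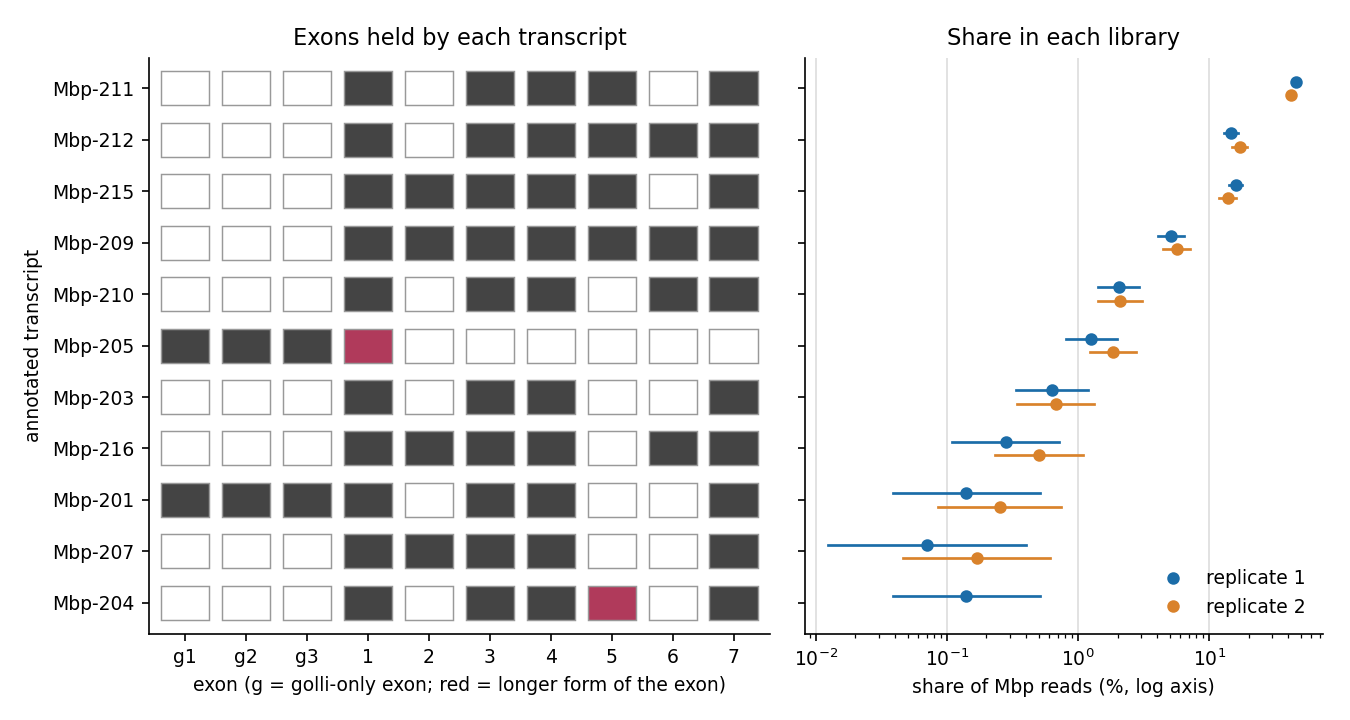
Left, exons held by each annotated Mbp transcript with a read (filled boxes; red marks the longer exon 5 of Mbp-204 and the extended golli exon of Mbp-205; in Mbp-201 exon 1 is the longer golli form). Right, the transcript's share of all Mbp reads in each library on a log axis, with 95% Wilson intervals; Mbp-211 lies at 46.2% and 42.3%, and Mbp-204 has no point for replicate 2 because it had 0 reads.

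Isoform usage of Mbp did not pass the test between the libraries. Over the isoforms of the gene, with those under 10 reads merged, the chi-square statistic was 15.3 on 10 degrees of freedom (p = 0.122, Benjamini-Hochberg adjusted over all genes p = 0.692). Of the 3141 genes tested, 25 (0.796%) passed. The level of the gene thus differed by a test on the reads, while a difference in the mix of isoforms was not detectable at this depth.

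Taken exon by exon, percent spliced in is the share of reads that hold an internal exon among those that hold or skip it. Exon 2 was in 25.0% of 1233 reads of replicate 1 (95% Wilson interval 22.6% to 27.5%) and in 24.4% of 1001 reads of replicate 2 (21.8% to 27.1%). Exon 6 was in 25.7% of 1251 reads (23.4% to 28.2%) and in 30.3% of 1007 reads (27.5% to 33.2%). Exons 2 and 6 were thus the minority choice in both libraries.

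Exon 5 was the reverse. It was in 95.3% of 1243 reads (94.0% to 96.4%) and in 95.2% of 996 reads (93.7% to 96.3%). Exon 4, of 36 bases, was in 99.9% and 99.7% of reads, and 1 and 3 reads skipped it. No exon of Mbp passed the test between the libraries. Exon 6 came nearest, with a difference of 4.55 percentage points (Fisher's exact test, p = 0.0181, adjusted over all exons p = 1), and 29 of the 13531 exons tested over all genes had a smaller p. In that whole set 1 exon (0.00739%) passed.

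**Figure D2:**
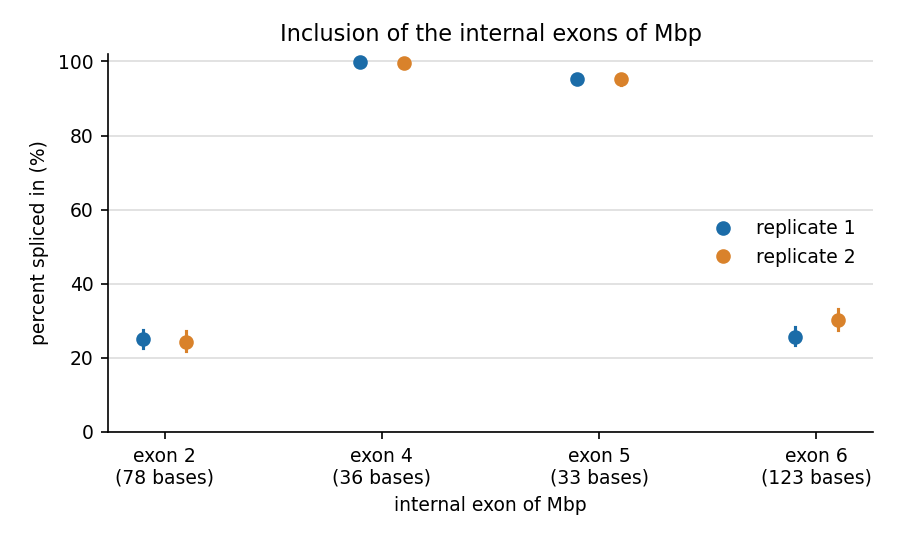
Percent spliced in of exons 2, 4, 5 and 6 of Mbp in each library (points; bars are 95% Wilson intervals, mostly within the points for exons 4 and 5). Exons 4 and 5 sit above 95% and exons 2 and 6 between 24.4% and 30.3% in both libraries.

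A single read shows which exons were joined in 1 molecule. Exon 2 and exon 6 were included without a measurable association. Exon 2 was in 24.2% of 318 reads with exon 6 and in 25.3% of 913 reads without it in replicate 1 (odds ratio 0.943, exact 95% interval 0.691 to 1.28; Fisher's exact test, p = 0.764, adjusted p = 0.912). In replicate 2 it was in 24.6% of 305 and 24.2% of 694 reads (odds ratio 1.02, 0.735 to 1.41; Fisher's exact test, p = 0.936, adjusted p = 1). The adjusted p-values of exon pairs cover all pairs of alternative exons in all genes of the library, 943 pairs in replicate 1 and 1090 in replicate 2. Of those, 454 (48.1%) and 527 (48.3%) passed in either direction.

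Molecules with exon 6 lacked exon 5 more often than molecules without exon 6. Exon 5 was skipped in 35 of 320 reads with exon 6 (10.9%) and in 21 of 921 reads without it (2.28%) in replicate 1. In replicate 2 it was skipped in 32 of 302 (10.6%) and in 15 of 693 (2.16%). The odds ratio of joint inclusion was 0.190 in replicate 1 (exact 95% interval 0.103 to 0.342, and by Fisher's exact test an adjusted p = 2.25e-08) and 0.187 in replicate 2 (0.0925 to 0.362; adjusted p = 4.12e-07). The association held within each library by itself, and with Known models alone the odds ratios were 0.117 and 0.170. Seen from the other side, exon 6 was in 62.5% and 68.1% of reads that skipped exon 5, against 24.1% and 28.5% of reads that held it.

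An association in this direction was uncommon among exon pairs of other genes. Pairs that passed with an odds ratio below 1 numbered 65 (6.89%) in replicate 1 and 79 (7.25%) in replicate 2, while 389 and 448 passed above 1. Of all pairs, 78 and 93 had a lower odds ratio than exons 5 and 6 of Mbp. Many pairs are of the same gene, so they are not independent of each other.

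**Figure D3:**
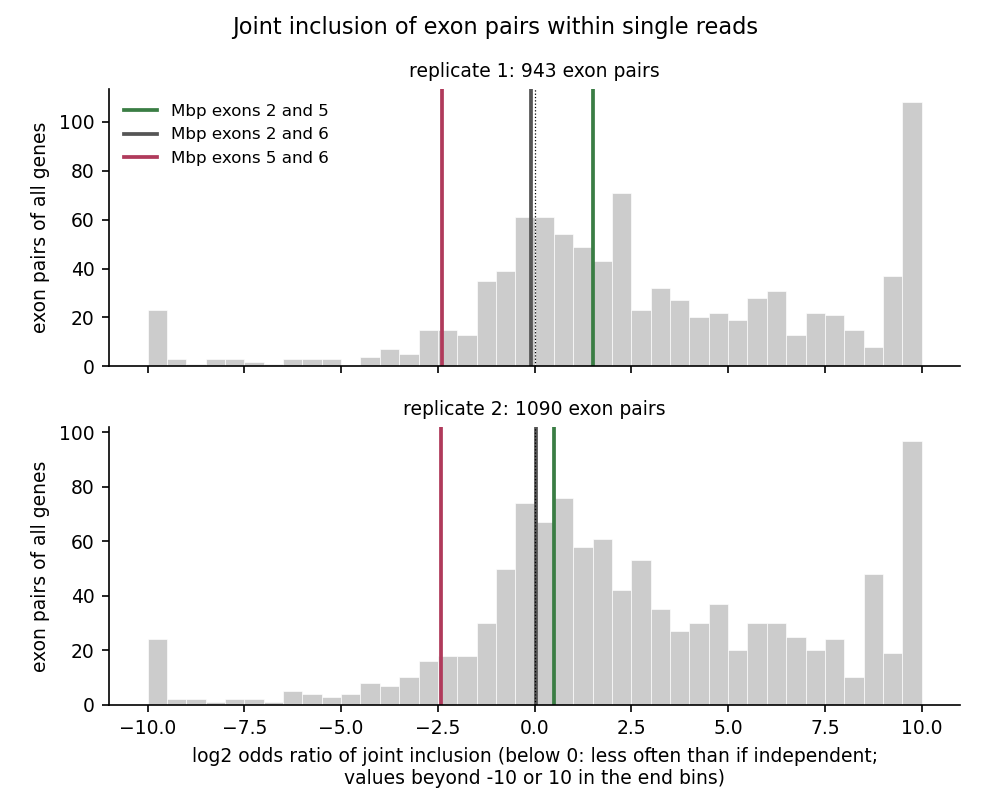
Number of exon pairs of all genes by log2 odds ratio of joint inclusion within reads, in each library (grey bars), with the 3 pairs of exons 2, 5 and 6 of Mbp as vertical lines. Exons 5 and 6 of Mbp lie left of most pairs in both libraries, with exons 2 and 6 near 0; exons 2 and 5 lie above 0, farther in replicate 1.

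The same contrast was present with and without exon 2, counted over annotated chains from exon 1 with the usual exon 5. Among reads without exon 2, exon 5 was skipped in 29 of 239 reads with exon 6 (12.1%) and in 9 of 667 reads without it (1.35%) in replicate 1. In replicate 2 the counts were 25 of 228 (11.0%) and 8 of 510 (1.57%). Among reads with exon 2 they were 4 of 77 (5.19%) and 1 of 228 (0.439%) in replicate 1, and 6 of 73 (8.22%) and 2 of 166 (1.20%) in replicate 2. Skipping was higher with exon 6 in all 4 of these comparisons.

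Exons 2 and 5 gave a less stable result. Their odds ratio was 2.83 in replicate 1 (1.19 to 8.16; Fisher's exact test, adjusted p = 0.0232) and 1.41 in replicate 2 (0.660 to 3.37; adjusted p = 0.672). The pair passed in replicate 1 alone, and 6 and 9 reads held exon 2 without exon 5. With Known models alone the call of replicate 1 was lost (odds ratio 2.76; Fisher's exact test, p = 0.0676 adjusted over the 6 tests of Mbp exon pairs). Whether the odds ratios differ between the libraries was not tested.

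**Figure D4:**
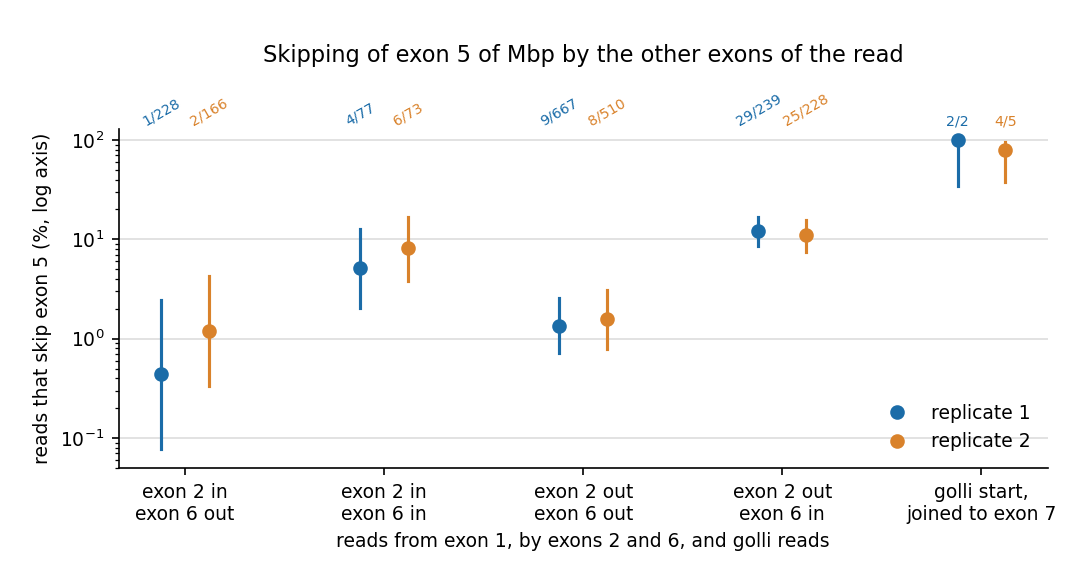
Share of reads that skip exon 5, on a log axis, for reads from exon 1 by exons 2 and 6 and for golli reads that reach exon 7; bars are 95% Wilson intervals and the labels above give skipping reads over all reads. The points with exon 6 lie above those without it in each library, and 6 of 7 golli reads skip exon 5.

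By first exon, Mbp reads fell into a large classic class and a small golli class. Classic starts in exon 1 held 1231 reads in replicate 1 (86.5%, 95% Wilson interval 84.6% to 88.2%) and 996 in replicate 2 (83.8%, 81.6% to 85.8%). Golli starts, with the golli exons 5' of exon 1, held 20 reads (1.41%, 0.912% to 2.16%) and 29 reads (2.44%, 1.70% to 3.48%). In level, golli transcripts stood at 25.8 and 31.4 CPM, and classic ones at 1588 and 1078 CPM. The golli share of Mbp reads did not pass the test between the libraries (Fisher's exact test, p = 0.0597, not adjusted).

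In value, golli reads were higher and classic reads lower in replicate 2, but the test of the difference between the 2 classes missed the threshold. The log2 ratio of golli reads was 0.27 (-0.54 to 1.08) and that of classic reads -0.56 (-0.68 to -0.44). The odds of a golli against a classic start were 1.79 times higher in replicate 2 (exact 95% interval 0.973 to 3.36; Fisher's exact test, p = 0.0582). This interval runs from a value near equality to more than 3-fold.

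Most golli reads held no junction to the later classic exons. In replicate 1, 18 of 20 belonged to models that end with the extended golli exon (90%, 69.9% to 97.2%). In replicate 2, 24 of 29 did (82.8%, 65.5% to 92.4%). How far the single reads ran into that exon was not analysed. Mbp-205 is the annotated transcript of this shape, with 195 residues, and it had 18 and 22 reads. The other 2 reads of this shape, both in replicate 2, lacked the golli first exon and began in the second. Mbp-201, which joins the golli exons to exons 3, 4 and 7 (250 residues, 27.2 kDa), had 2 and 3 reads.

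The golli reads that went on to exon 7 numbered 2 in replicate 1 and 5 in replicate 2. None of the 7 held exon 2 or exon 6, which at this number allows a share of up to 42.9%. Exon 5 was absent from 2 of 2 and 4 of 5 of them. Among annotated classic reads it was absent from 43 of 1211 (3.55%) and 41 of 977 (4.20%), and the difference passed Fisher's exact test in each library (p = 0.00135 and p = 1.87e-05, not adjusted). Against the classic reads that also lack exon 6, exon 5 was absent from 10 of 895 (1.12%) and 10 of 676 (1.48%) (Fisher's exact test, p = 0.000164 and p = 5.57e-07). The 1 golli read with exon 5 was an unannotated combination of annotated splice sites.

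Golli starts beyond the annotation were single events. 1 read of replicate 2 began in an unannotated first exon whose splice donor lies 738 bases downstream of that of the golli first exon, and it joined the golli second exon. The short golli transcript Mbp-208, the golli transcript Mbp-213 (annotated as subject to nonsense-mediated decay) and the noncoding Mbp-214 had 0 reads in both libraries.

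The remaining Mbp reads were not spliced from a first exon. Reads that began in exon 2 or later numbered 20 and 8, and the most frequent of these chains began in exon 3 (8 and 2 reads) and in exon 5 (5 and 4 reads). Single-exon reads over exon 7 numbered 151 and 144, or 10.6% and 12.1% of Mbp reads, and carry no information on splicing. Their models reached 2499 and 3167 bases, past the 1526 bases of exon 7 into the last intron. Reads of unspliced models that end with the extended golli exon, at 82558703, numbered 1 (0.0703%, 0.0124% to 0.397%) and 11 (0.926%, 0.518% to 1.65%). The intervals did not overlap. Where the single reads of these models began or ended was not analysed. The model of the 11 reads in replicate 2 begins at 82554470, the start of exon 1, and so covers the classic first exon as well. The model of the 1 read in replicate 1 begins at 82557513, beyond exon 1. This class was singled out after its values were seen. On the opposite strand, 1 read inside the gene was found in replicate 1 and 1 read just upstream of it in replicate 2.

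Unannotated splicing of Mbp was rare. NIC and NNC chains numbered 27 with 18 and 20 reads in all, of which 22 chains had 1 read, and so can only be in 1 library, and 2 were found in both. Of all uses of a splice site in Mbp reads, 21 of 11234 (0.187%) and 24 of 9210 (0.261%) were at an unannotated site. These sites numbered 19, of which 8 were found in both libraries and 9 had 1 read. Of the 19, 12 lay within 40 bases of an annotated site, and 1 of these 12 was offset by a multiple of 3.

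A few of the sites recurred. Donors 4 bases downstream of that of exon 3 were used in 2 and 2 reads, and 4 bases downstream of that of exon 5 in 1 and 5 reads. An acceptor 4 bases into exon 7 was used in 2 and 3 reads. A donor 20 bases downstream of that of exon 4 was used in 6 reads of replicate 1 and 1 of replicate 2, and the 6 came from 1 chain that goes on directly to exon 7. An intron within exon 7 was removed in 1 and 2 reads. Each of these offsets breaks the reading frame or lies beyond the coding bases.

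Few genes of this depth spread their reads over as many isoforms. Without incomplete splice matches and genomic models, Mbp had 3 isoforms that each held 10% or more of its reads in both libraries (Mbp-211, Mbp-212 and Mbp-215). The effective number of isoforms, the exponential of the Shannon entropy of the shares, was 4.20 in replicate 1 and 4.68 in replicate 2 (4.44 ± 0.337, SD, n = 2). The median over the 2631 genes that reached 50 reads in both libraries was 1.71, and 2345 of them lay below Mbp (89.1%). With incomplete splice matches kept, the value of Mbp was 4.77, the median over 2986 genes was 2.45 and 2301 of them (77.1%) lay below Mbp. Among the 137 genes that reached 500 reads in both, Mbp ranked 8.

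The genes nearest to it on this measure differed in how their reads were spread. Mtch1, which encodes a mitochondrial outer membrane protein, had an effective number of 4.28 ± 0.131, and Olfm1, which encodes a secreted neuronal glycoprotein, 4.07 ± 0.101. Apbb1, an adaptor of the amyloid precursor protein, had 4.82 ± 0.110, Ndrg2 had 4.96 ± 0.169 and Ndrg4 had 5.17 ± 0.450. The leading isoform held 52.6% and 49.1% of reads in Mbp, 38.9% and 38.2% in Olfm1, and 59.5% and 61.7% in Apbb1.

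**Figure D5:**
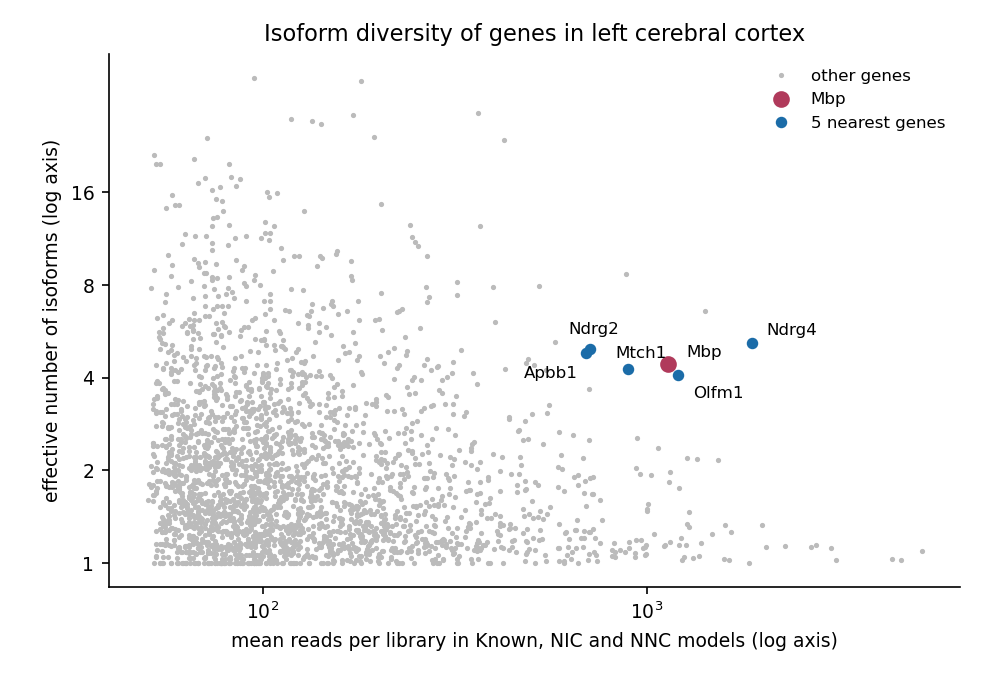
Effective number of isoforms (mean of the libraries) against mean reads in Known, NIC and NNC models per library, both on log axes, for 2631 genes (grey), Mbp (red) and the 5 genes nearest to it among those that reached 500 reads in both (blue). Mbp, at 4.44, lies in the upper part of the range, with few genes of its depth above it.

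A few other genes of myelin were lower in replicate 2, as Mbp was. Of 16 genes of myelin proteins, 14 had enough reads to be tested, 3 were lower in replicate 2 and 0 higher, and 13 had a log2 ratio below 0 with a median of -0.69, against a median of -0.01 over all genes tested, of which 113 were lower and 123 higher. The striatal markers given above were lower in the same library, and their part in this was not tested. Cnp, an enzyme of uncompacted myelin, had 482 and 393 reads (log2 ratio -0.55, Fisher's exact test, adjusted p = 6.96e-06), and Ugt8a, which makes the myelin lipid galactocerebroside, had 61 and 35 (-1.05, adjusted p = 0.0283). Both were among the genes that passed.

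Others on the list with many reads did not pass. Sirt2, a deacetylase abundant in myelin, had 252 and 267 reads (-0.17), Sept4, a septin, 82 and 92 (-0.09), and Mobp, a small basic protein of compact myelin, 74 and 57 (-0.63). The log2 ratios nearest to that of Mbp were those of Cnp, Mobp and Mal, a raft-associated protein of myelin (-0.68, with 27 and 20 reads).

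Transcription factors of the lineage gave 4 tested genes of 8, with 0 past the test, 4 below 0 and a median log2 ratio of -0.41. Olig1, which directs oligodendrocyte maturation, had 101 and 116 reads (-0.06), and Olig2, which specifies the lineage, 73 and 60 (-0.53). Sox10, an activator of myelin genes, had 35 and 34 (-0.30), and Nkx6-2 had 11 and 7 (-0.87). Myrf, the regulator of the myelin program, had 4 and 5 reads and was not tested.

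RNA-binding and transport factors of Mbp mRNA gave 10 tested genes of 10, with 0 past the test, 5 below 0 and a median of -0.01. Hnrnpa2b1, which binds the transport element of Mbp mRNA, had 338 and 466 reads (0.21), and Hnrnpk, which acts in its translation, 539 and 593 (-0.12). Fyn, the kinase that triggers local translation of Mbp, had 220 and 249 (-0.08). Pcbp1 and Hnrnpf, both RNA-binding proteins, had 138 and 184 (0.16) and 150 and 151 reads (-0.24). A median log2 ratio near that of all genes says nothing on whether the factors are active in the cells that hold Mbp. Bulk libraries mix all cortical cells.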

How the data were processed

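For each library the authors deposited raw counts of reads per transcript model, with the exons of each model in a separate file. Per the text deposited beside the tables, each library had its own models, made on mm10 and GENCODE M21, and TALON is named in the deposited models. The aligner is not given in the sources used here. The start and end of a Known model are those of the annotation, so the ends of single reads were not analysed here. Mbp and the gene lists were chosen with earlier results of these data known.

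Unannotated spliced models were matched between libraries by strand and chain of introns. CPM values, log2 ratios and the test of reads per gene used mouse reads (775048 and 924222) as the library total. The other tests compared reads within a gene and used no library total. Per gene, reads were tested by Fisher's exact test (two-sided; 10 or more reads in the libraries together), isoform usage by a chi-square test (at least 50 reads in each library), exon inclusion by Fisher's exact test (at least 20 reads in each library) and exon pairs by Fisher's exact test (at least 5 reads with and without each exon). All were run on every gene that qualified, at a threshold of 0.05 after Benjamini-Hochberg adjustment. The plan named the pair of exons 2 and 6 as a result, adjusted over all Mbp exon pairs (6 tests, which include the pairs with exon 5). The wider adjustment, the pairs with exon 5 as results of their own, the split by exon 2 and the golli comparison for exon 5 were added after seeing the data. Log2 ratios have 0.5 reads added. Intervals are 95% Wilson or exact intervals, except those of log2 ratios, which are a 95% normal approximation from the counts. The floor is 3 counts. Intervals and floor cover counting error only, since PCR copies cannot be told from separate molecules here. Protein lengths and masses were computed from annotated coding sequences. Named were all Mbp models with at least 5 reads, the 5 members with most reads and any that passed in each list, the 5 genes nearest in effective number of isoforms and the 3 myelin genes nearest in log2 ratio. Rarer Mbp models were added after their values were seen. Some genes of the lists are counted but not reported here by name. Scripts used Python 3.11.15, scipy 1.17.1, pandas 2.3.3, biopython 1.88 and, for the TMM alternative, edgeR 4.0.16 in R 4.3.3, and were tested on simulated data.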

Additional observations from a re-analysis of the deposited data

How the results depend on the processing

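Of 79 alternatives over 18 results, 73 kept the direction, the side of the threshold or a value within the spread of the replicates. With 2 replicates, the value of either lies within their SD by construction. Leaving out 1 replicate thus could not count as a change for exon inclusion, first-exon shares or the effective number of isoforms. Those settings say nothing on how stable these values are. Exon 5 inclusion, 95.3%, came to 95.7% with models of at least 2 reads and 95.9% with Known models alone. The classic start, 85.2%, came to 97.9% both without incomplete splice matches and genomic models and with Known models alone. Every read left under those settings had a golli or classic start, so that rise follows from the filter. The association of exons 2 and 5 pooled over libraries (odds ratio 1.98) ran from 1.41 without replicate 1, where it lost the threshold, to 2.83 without replicate 2, and in replicate 1 it lost the threshold with Known models alone (2.76, adjusted p = 0.0676; adjusted p from 0.00783 to 0.0304 under its other settings). With the spike-in reads (all reads not on mouse chromosomes) as the library total, the Mbp log2 ratio was -0.80. The median of all genes was then -0.29, and 968 genes passed in place of 236. ERCC and SIRV reads were not separated in that total. The Mbp log2 ratio ranged from -0.51 to -0.52 under the other settings. Adjustment over the 6 Mbp pairs or over all genes gave the same calls for the pairs of exons 2, 5 and 6 over all models. No paired analysis was possible because there is 1 group. Depth limits what can be said of golli forms (49 reads in all, of which 7 reached exon 7) and of the rarest classic chains.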
